A study of Homo sapiens with 4 samples.

Results

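The regions described here are the strong FOXK1 peaks of HK-2 cells that lie in stretches of the genome without a protein-coding gene. Chromosomes 1 to 22 and X were divided into 1 Mb bins, and a bin was called gene-free when no protein-coding gene of the RefSeq table overlapped it. A peak was a member when its height was 20 or more and its midpoint lay in a gene-free bin. Height is the value deposited for each peak, read as the pileup height, which is the number of fragments stacked at its highest point. By this rule 356 of 381673 peaks of the control list and 336 of 439123 peaks of the TGF-β1 list were members. The members were therefore chosen by height and gene content, which are given as descriptions, whereas overlap between the lists, length and place within the gene-free sequence were not part of the rule.

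HK-2 is an immortalised human line of proximal tubular epithelium. The series asks about FOXK1 in glycolysis and kidney fibrosis, and it has 4 libraries. In the control condition untreated cells gave 1 library immunoprecipitated with an antibody to FOXK1 and 1 input library, made from chromatin without antibody. In the treated condition, cells given TGF-β1, a profibrotic cytokine, at 10 ng/ml for 24 h gave the same 2 kinds of library. Both conditions used the same HK-2 line, and chromatin of both was digested with micrococcal nuclease and sonicated. With 1 FOXK1 library per condition there is no replicate check, no effect of TGF-β1 could be tested, and no p-value is given. The number of reads per library is unknown, so heights and counts set side by side for the lists are not a measure of change.

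FOXK1 is a forkhead transcription factor, and factors of this kind bind short DNA motifs at promoters and at distal enhancers. Gene-free sequence in the human genome is of several sorts. Gene deserts are mostly unique sequence, often between developmental genes, and can carry enhancers that act over long distances. Centromeres consist of alpha satellite, a short unit repeated in tandem into long arrays, which the hg38 assembly represents by modelled sequence. Chromosomes 1, 5 and 19 carry closely related alpha satellite, as do the acrocentric chromosomes 13, 14, 21 and 22. Ribosomal DNA holds tandem copies of the 45S gene, whose transcript is cut into 18S, 5.8S and 28S ribosomal RNA, and the assembly places a few of its copies on the short arm of chromosome 21.

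One pair of identical sequences serves as an example of such repeats in the lists. MIR6724 is a microRNA gene that lies beside ribosomal DNA on chromosome 21, and 2 of its copies in gene-free sequence are compared here. Both hairpins are 92 bases long, are identical to each other and have a G+C content of 83.7%. They are printed 5′ to 3′ from RefSeq (GRCh38.p14, plus strand), with capitals for bases that lay under a peak of the control list.
MIR6724-4, chr21:8432530-8432621: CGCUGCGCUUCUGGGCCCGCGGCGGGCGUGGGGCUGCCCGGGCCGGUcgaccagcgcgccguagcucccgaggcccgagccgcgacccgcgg
MIR6724-2, chr21:8249505-8249596: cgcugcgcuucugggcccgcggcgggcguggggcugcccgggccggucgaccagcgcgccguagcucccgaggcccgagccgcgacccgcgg
The first 47 bases of MIR6724-4 lay inside a control member of height 39 (chr21:8432206-8432576), whereas the TGF-β1 member of height 37 at the same place (chr21:8432261-8432521) ended 8 bp before the hairpin. MIR6724-2 has the same letters, yet its nearest control peak was 240 bp away and its nearest TGF-β1 peak 2647 bp away. In the control list the same sequence was thus partly under a strong peak at one address and under none at the other. In the TGF-β1 list neither copy was under a peak. Sequences of the other members were not analysed here.

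The members fell into 4 places. In the control list 217 members (61.0%) lay inside a centromere span, 40 (11.2%) in the 1 bin of chromosome 21 that holds the 45S genes, 97 (27.3%) more than 5 Mb from a centromere, and 2 elsewhere within 5 Mb. The TGF-β1 list had 255 (75.9%), 18 (5.36%), 63 (18.8%) and 0 in the same order. Members more than 5 Mb from a centromere are called desert members below. The centromere spans are 84 bins taken by hand in whole megabases from general knowledge of hg38, not from the deposited files or the RefSeq table, and 13 of these bins hold a coding gene and so are outside the rule. Within the spans, 0 of 217 and 0 of 255 members overlapped any gene of the RefSeq table.

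Strong peaks were a smaller part of all peaks in gene-free bins than elsewhere, but not in every place. A height of 20 or more was reached by 1.99% of all control peaks and 1.32% of all TGF-β1 peaks. In gene-free bins the shares were 1.33% (exact binomial 95% interval 1.199 to 1.478%) and 0.965% (0.865 to 1.07%), against 2.04% and 1.35% in bins with a coding gene. Inside the centromere spans the shares were 5.95% (217 of 3645 peaks) and 5.41% (255 of 4717), and in the ribosomal DNA bin 69.0% (40 of 58) and 40.0% (18 of 45). In deserts they were 0.440% of 22028 and 0.218% of 28884 peaks, and in the other gene-free bins within 5 Mb of a centromere 2 of 965 and 0 of 1174. Intervals here and below cover counting error only, and members in 1 repeat array are not independent of each other.

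Distance to the centromere separated the members from the lower peaks around them. Within 5 Mb of a centromere lay 72.8% of control members (67.8 to 77.3%) and 81.3% of TGF-β1 members (76.7 to 85.3%). Of the peaks below height 20 in gene-free bins, 16.7% and 16.4% lay as close. At the threshold itself the picture was alike on both sides: the control list had 45 peaks of height 19, of which 27 were in centromere spans and 18 in deserts, and 32 of height 20, of which 21 and 11 were. The TGF-β1 list had 43 peaks of height 19, 32 of them in centromere spans, and 37 of height 20, 28 of them there.

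**Figure D1:**
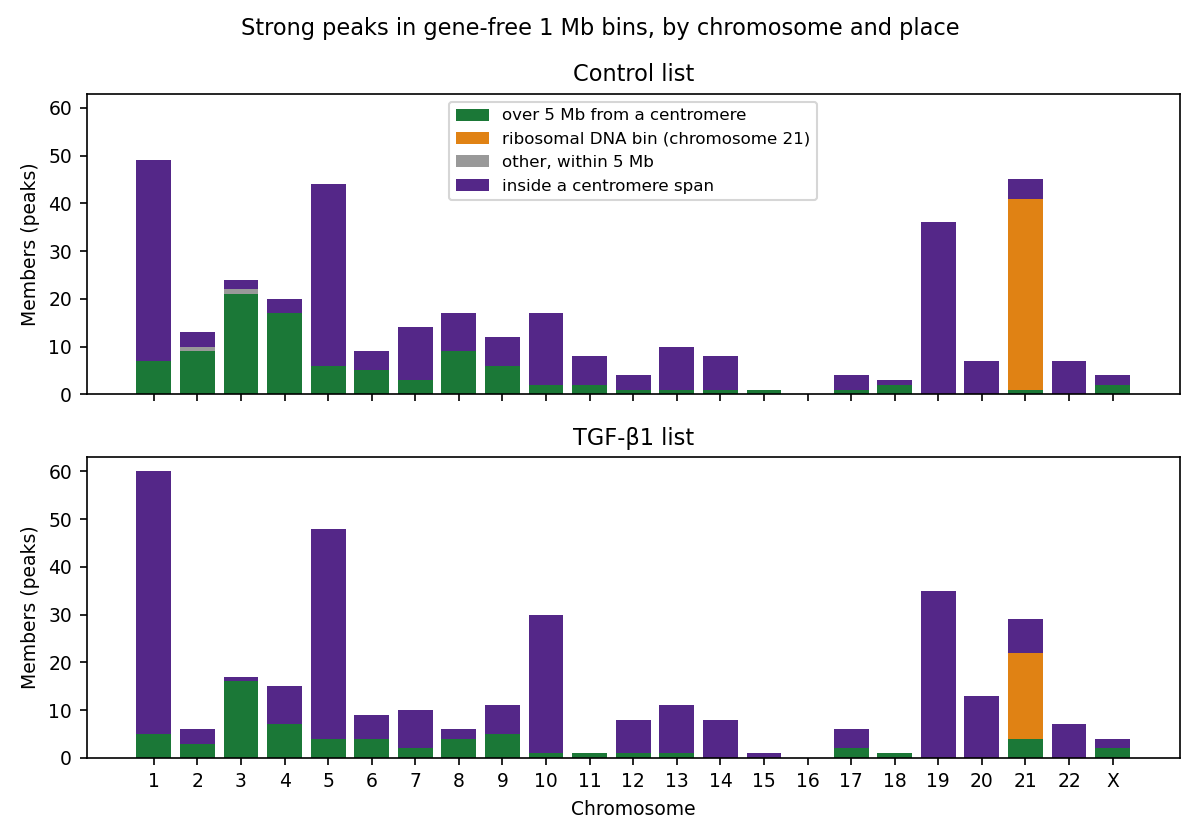
Number of members on each chromosome in the control list (top) and the TGF-β1 list (bottom), with bar segments for the place of the member. The centromere spans of chromosomes 1, 5 and 19 hold 116 of 217 and 134 of 255 centromere members, and the ribosomal DNA bin makes chromosome 21 tall.

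Members were spread unevenly over 97 bins (control) and 79 bins (TGF-β1). In the control list the fullest bin was the ribosomal DNA bin of chromosome 21 with 40 members, followed by bins in the centromere spans of chromosome 1 with 23, chromosome 19 with 16, chromosome 5 with 15 and chromosome 1 again with 14. In the TGF-β1 list the fullest were 2 bins of the chromosome 1 span with 27 and 20, then the ribosomal DNA bin with 18 and 2 bins of the chromosome 5 span with 18 and 17. The span of chromosome 10 held 15 control and 29 TGF-β1 members. Chromosome 16 held 0 members in both lists.

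Overlap between the lists set the places apart. Of all strong peaks, members included, 96.1% of the control list and 94.7% of the TGF-β1 list overlapped a peak of any height in the other list by at least 1 bp. Among members the shares were 43.8% (156 of 356, 38.6 to 49.2%) and 36.9% (124 of 336, 31.7 to 42.3%), both far below that background. Desert members overlapped in 96 of 97 and 62 of 63 cases, which is like strong peaks in bins with a coding gene, at 98.6% and 98.3%. Centromere members overlapped in 45 of 217 cases (20.7%, 15.6 to 26.8%) and 48 of 255 (18.8%, 14.2 to 24.2%), and ribosomal DNA members in 14 of 40 and 14 of 18.

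**Figure D2:**
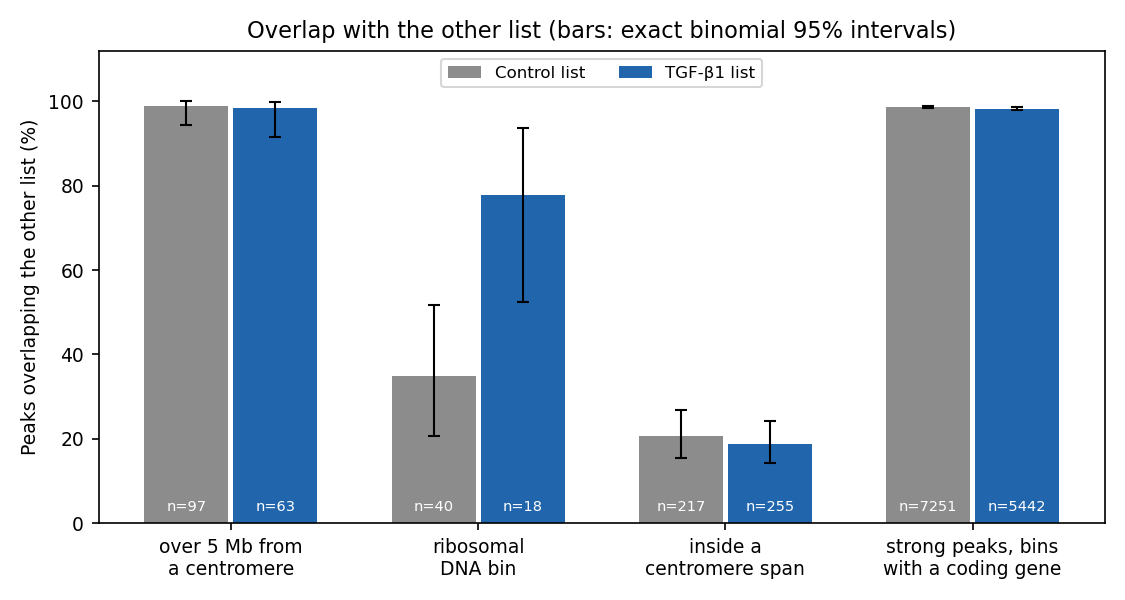
Share of peaks (%) that overlap a peak of the other list by at least 1 bp, for the 3 main places of members and for strong peaks in bins with a coding gene, with n under each bar and exact binomial 95% intervals. Desert members are at 99.0% and 98.4%, centromere members at 20.7% and 18.8%.

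Greater height did not bring centromere members to the level of other strong peaks. At heights of 20 to 29, 15.1% of control and 17.9% of TGF-β1 centromere members overlapped the other list. From a height of 50 upwards they were 31.9% (15 of 47) and 30.6% (15 of 49), against 98.9% and 96.4% of strong peaks of that height in bins with a coding gene. The few strong peaks of centromere-span bins that hold a coding gene also overlapped less often than strong peaks at large, in 8 of 17 and 5 of 18 cases. Among all strong peaks, with or without overlap, 4.68% of the control list and 5.815% of the TGF-β1 list were members. Of the 299 strong control peaks without any overlap, 200 (66.9%) were members, 172 of them in centromere spans. Of the 306 such TGF-β1 peaks, 212 (69.3%) were members, 207 of them in centromere spans.

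Centromere members were short. Their median length was 277 bp (264 to 292 bp) without and 254 bp (247 to 264 bp) with TGF-β1, against 915 bp and 932.5 bp for strong peaks in bins with a coding gene. Desert members had medians of 768 bp and 964 bp, and ribosomal DNA members 403.5 bp and 295 bp. The difference was present at matched height: at 50 or more, centromere members had medians of 266 bp and 244 bp, and the strong peaks of coding-gene bins 1058.5 bp and 1081 bp. The shortest peak of the whole control list was 234 bp and that of the TGF-β1 list 223 bp. Within 20 bp of that lower limit lay 74 of 217 (34.1%) and 95 of 255 (37.3%) centromere members, 0 of 97 and 0 of 63 desert members, and 0.138% and 0.349% of strong peaks in coding-gene bins.

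**Figure D3:**
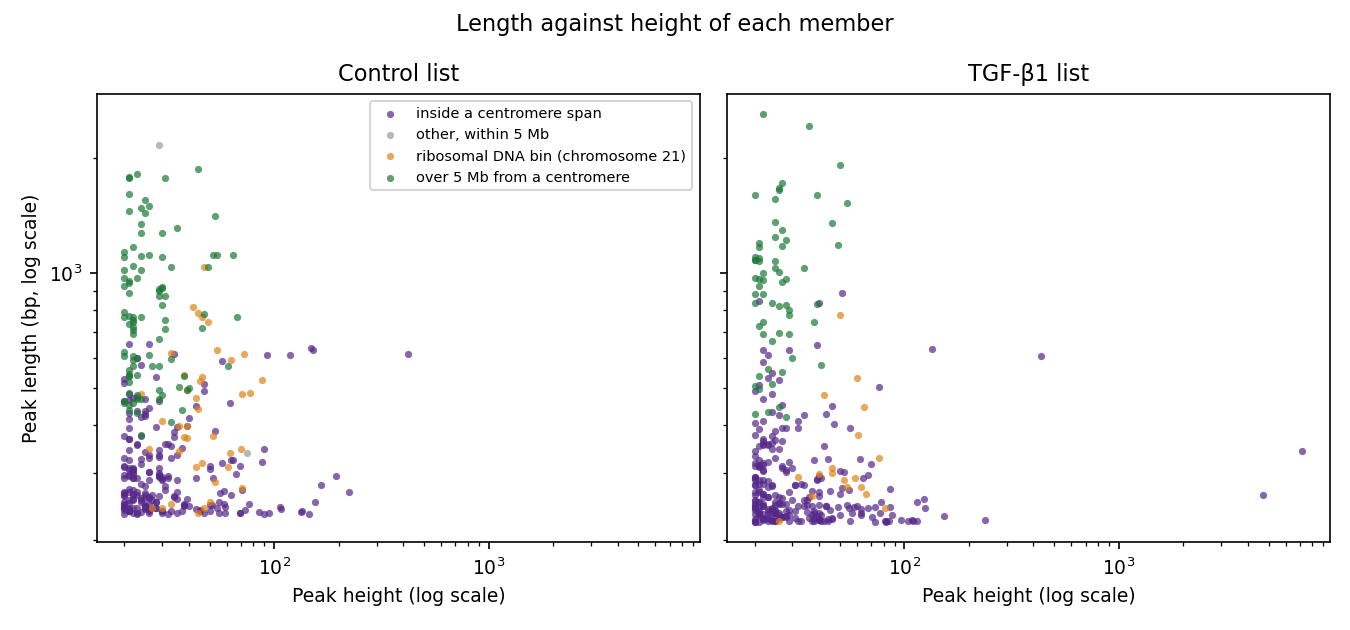
Length (bp) against height of each member on log axes, coloured by place, for the control list (left) and the TGF-β1 list (right). Centromere members form a band just above the shortest lengths of 234 and 223 bp up to heights over 100, while desert members are mostly longer and reach heights of 67 and 54. The lengths overlap: desert members start at 377 and 419 bp, and centromere members reach 653 and 887 bp.

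Among the centromere members are the highest peaks of the group. Members made up 4.68% of all strong control peaks and 5.815% of all strong TGF-β1 peaks. Of 111 control peaks of height 100 or more, 13 were members, and of 103 TGF-β1 peaks, 13 were. All of them lay in centromere spans. The highest control member, chr17:26619480-26620095, had a height of 422, and its counterpart in TGF-β1 cells, chr17:26619470-26620076, had 432. This region and a neighbour at chr17:26885321-26885952, listed at 93 without and at 134 with TGF-β1, were long for centromere members, at 607 to 632 bp in both lists. They thus belong to the minority that recurred at the same address.

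The highest TGF-β1 members had no counterpart. They were chr1:125180054-125180395 with a height of 7187 and chr1:125182378-125182640 with 4700, and they stood in the centromere span of chromosome 1. The nearest control peak ended 24.8 kb before the former and had a height of 4. Regions that the rule leaves out, because a coding gene shares their bin, were also very high, both with and without a control peak. With a control peak, chr3:93470370-93470787 had a TGF-β1 height of 8140 and a control height of 4805. Likewise chr1:143214301-143214792 had 3055 and 2929, and chr1:143254427-143254960 had 1300 and 1163. By contrast, chr1:143202542-143202784, with a TGF-β1 height of 3852, and chr1:143232945-143233210, with 2645, overlapped no control peak. The next TGF-β1 member without overlap was chr19:27183523-27183748 with a height of 237, followed by chr19:26842702-26842953 with 115 and chr19:25872324-25872547 with 114. The other highest TGF-β1 members of full bins, chr5:49367978-49368201 with 110, chr5:48939065-48939308 with 86 and chr1:123157518-123157741 with 85, also had no control peak.

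The highest control members without overlap lay on chromosomes 5, 19 and 1. They were chr5:49487564-49487830 with a height of 224, chr19:27087063-27087341 with 166, chr1:124322609-124322860 with 155, chr1:124659500-124660129 with 151 and chr19:27064940-27065575 with 148. In each case the nearest TGF-β1 peak was between 5.6 and 20.1 kb away and had a height of at most 26. One more of the 10 highest control members, chr19:27036825-27037061 with a height of 133, also overlapped no TGF-β1 peak. Members of like height did recur elsewhere in the spans of chromosomes 5 and 19. One, chr5:47749890-47750123, with a control height of 146, had a strong TGF-β1 peak at the same address. Another, chr19:26728048-26728285, had a control height of 135 and a TGF-β1 height of 124. High centromere members were thus found both with and without a partner.

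The centromere spans of chromosomes 1, 5 and 19 held 116 of 217 (53.5%) control and 134 of 255 (52.6%) TGF-β1 centromere members, and the members of these chromosomes matched each other in position. A single constant shift moved 10 control members of chromosome 1 onto members of chromosome 19 within 50 bp, and no other shift moved more than 2. In the TGF-β1 list, analysed by itself, the best shift was the same to within 10 bp and joined 13 pairs, with at most 3 at any other shift. The shifts were -97594566 bp and -97594556 bp. From chromosome 1 to 5 the best shifts joined 6 and 11 pairs and differed by 5 bp between the lists, and from 5 to 19 they joined 7 and 12 pairs and differed by 12 bp. Shifts were compared for chromosomes with at least 5 centromere members, which gave 66 pairs of chromosomes for control and 91 for TGF-β1 peaks. In none of the other pairs compared did a shift join more than 2 control or 3 TGF-β1 members. This pattern was looked for after the values had been seen.

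Through these shifts, 40 of 116 control members (34.5%) and 58 of 134 TGF-β1 members (43.3%) had a partner on another of the 3 chromosomes. With the shifts taken from the other list, the counts were 44 and 58. The shifts differed by only 5 to 12 bp between the lists, which share some of these peaks, so this is not an independent check. On chromosome 19 the share was largest, at 15 of 36 and 20 of 35. Laid onto each other, the 250 members of both lists made up 163 places, of which 14 were occupied on all 3 chromosomes and 11 of those in both lists.

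A few of the matched places serve as examples and were picked after their values were seen. One place, at chr1:123049301-123049625, chr5:47855252-47855564 and chr19:25454744-25455041, was occupied on the 3 chromosomes in both lists, with control heights of 64, 69 and 66 and TGF-β1 heights of 50, 68 and 52. A second, at chr1:124681610-124681903, holds the chromosome 5 and chromosome 19 peaks named above and had control heights of 195, 224 and 166. In the TGF-β1 list this place appeared with a height of 153 on chromosome 1 and with no peak on chromosomes 5 and 19. Another, at chr1:124659500-124660129, had control heights of 151, 118 and 148 and lengths of 630, 609 and 636 bp, and no strong TGF-β1 peak on any of the 3. The last, at chr1:123558128-123558363, had control heights of 95, 90 and 88, and its strong TGF-β1 peak, of height 81, was on chromosome 5 alone. Other places were filled on 2 chromosomes: chr1:124322609-124322860 and chr19:26728048-26728285 match, with control heights of 155 and 135, and chromosome 5 had no member there.

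Some members that lacked a partner at their own address thus had one at the matching address of a related array. Of the control members on these 3 chromosomes, 25 of 116 had a TGF-β1 member within 50 bp at their own address, and 46 of 116 (39.7%) had one at the same place on any of the 3. For TGF-β1 members the counts were 25 of 134 and 44 of 134 (32.8%). The second count searches 3 addresses rather than 1. How reads that match several copies were placed is not given in the sources used here, and the part of that step in these peaks was not tested.

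**Figure D4:**
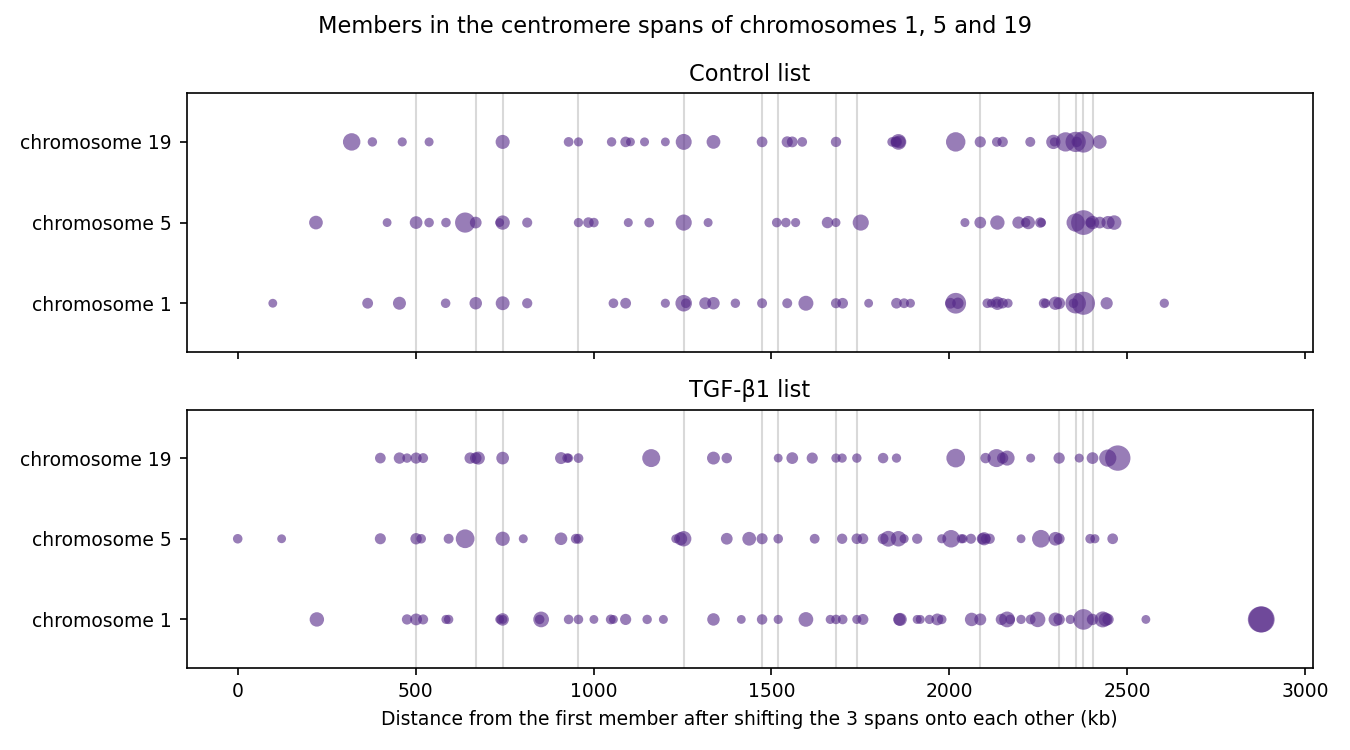
Members in the centromere spans of chromosomes 1, 5 and 19 after shifting the spans onto each other, in kb from the first member, with dot area growing with height up to 250. Grey lines mark the 14 places occupied on all 3 chromosomes in the lists combined.

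The acrocentric chromosomes gave no such match among members in the pairs compared, and each of their spans held at most 10 members in a list. Chromosome 21 had 4 control members in its span, too few to be compared in that list. The best shift joined 1 pair of TGF-β1 members between chromosomes 13 and 21, and 1 pair in either list between 14 and 22. With every peak of the spans, from height 3, more pairs lined up, at shifts that differed by at most 18 bp between the lists except for chromosomes 13 and 14. Chromosomes 13 and 21 then matched in 10 control and 11 TGF-β1 pairs, against at most 5 and 6 at another shift, and 21 and 22 in 9 and 10, against 4 and 5. Chromosomes 13 and 22 matched in 7 and 11 pairs, against 5 and 5, 14 and 21 in 6 and 9, against 3 and 5, and 14 and 22 in 6 and 8, against 4 and 6. Between 13 and 14 no shift led in either list. Other pairs of chromosomes reached counts like several of these. In the control list, 9 and 19 matched in 7 pairs, against 5, and 4 and 13 in 6, against 3. In the TGF-β1 list, 5 and 18 matched in 10, against 8, 18 and X in 10, against 10, and 1 and 14 in 8, against 5. The control counts for 13 and 22, 14 and 21, and 14 and 22 were no higher than those of such pairs. Nor were the TGF-β1 counts for 21 and 22, 14 and 21, and 14 and 22. In that list the lead over the next shift was 5 for 21 and 22, 4 for 14 and 21, and 3 for 1 and 14. One place on chromosomes 13 and 21 was strong on both: chr13:17413141-17413537, with a control height of 39 and a TGF-β1 height of 40, and chr21:12277719-12278101, with 34 and 51. That pair was picked after its values were seen.

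The ribosomal DNA members come from 1 bin, which holds 3 annotated copies of the 45S gene. The copies are RNA45SN2 (chr21:8205988-8219302), RNA45SN3 (chr21:8389035-8402343) and RNA45SN1 (chr21:8433222-8446572). Inside them lay 20 control and 10 TGF-β1 members. The others lay outside the copies, and the farthest, chr21:8988221-8988703 with a control height of 24, was 555240 bp beyond the start of RNA45SN1. A total of 26 of 40 control members and 12 of 18 TGF-β1 members overlapped a non-coding gene, mostly ribosomal RNA genes.

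Several positions recurred from copy to copy. In the control list, 15 of the 20 members inside a 45S gene had a member at the same distance from the start of another copy, within 200 bp, and in the TGF-β1 list 5 of 10 had. Each copy, 13309 to 13351 bp long, held 6 or 7 control members. How many matches their spacing alone would give was not computed. The position that was complete lies in the 5′ part of the 28S gene, 8223 to 8243 bp from the 45S start. There the control heights were 88 on RNA45SN2, 77 on RNA45SN3 and 71 on RNA45SN1, and the TGF-β1 heights were 65, 46 and 60. The highest of these, chr21:8213949-8214473, was also the highest ribosomal DNA member of the control list.

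A second position lies in the 3′ part of the 18S gene. It had control heights of 63, 54 and 72 on RNA45SN2, RNA45SN3 and RNA45SN1, and TGF-β1 heights of 59 and 61 on RNA45SN2 and RNA45SN1 with no peak on RNA45SN3. Another, further inside the 28S gene at 9620 to 9667 bp, had control heights of 44, 38 and 46 and no TGF-β1 peak on any copy. The highest TGF-β1 member of the bin, chr21:8430466-8430708 with a height of 81, lay 2635 bp before the start of RNA45SN1, overlapped no RefSeq gene and had no control peak. Here too the placement of reads among copies is not given, and its part in these peaks was not tested, so the copy a peak is listed on is uncertain.

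**Figure D5:**
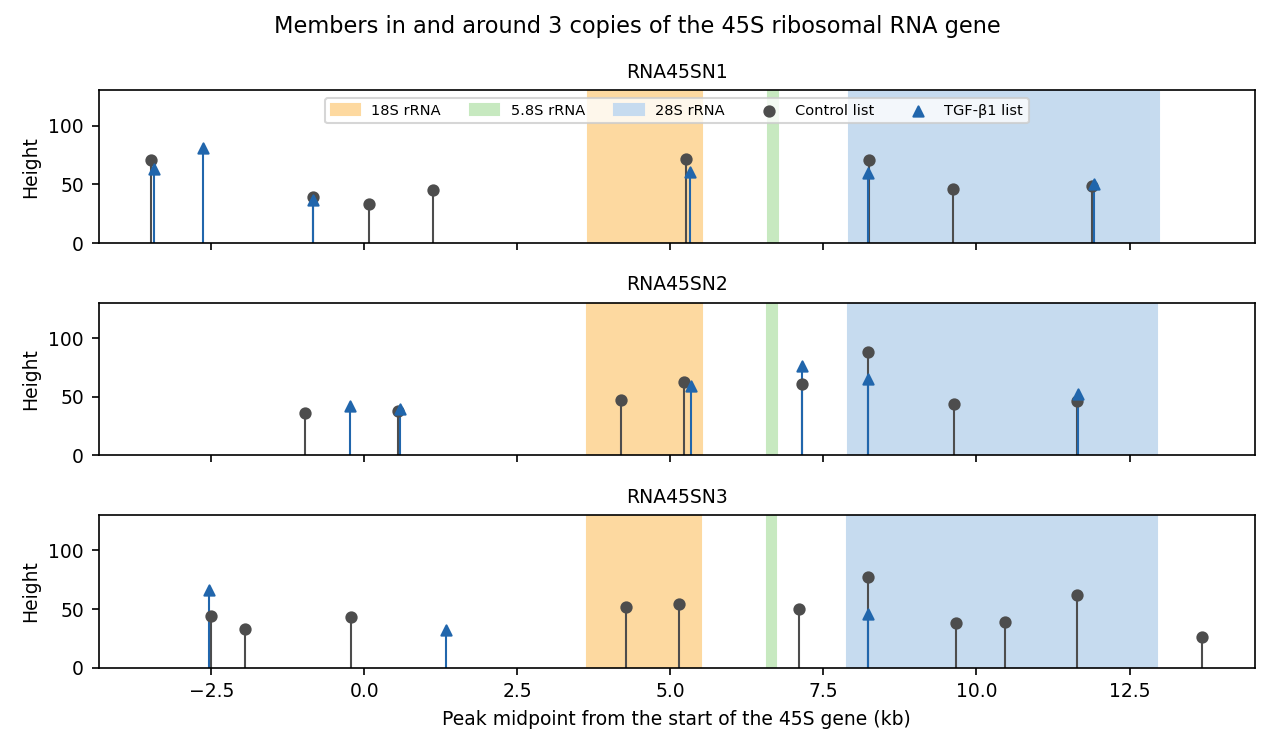
Height of members against the distance of their midpoint from the start of the 45S gene (kb) for 3 copies, with shading for 18S, 5.8S and 28S ribosomal RNA. Grey dots are the control list and blue triangles the TGF-β1 list, and the position in the 5′ part of 28S is occupied in both lists on all 3 copies.

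Desert members were lower, longer and recurrent. They lay on 19 (control) and 17 (TGF-β1) chromosomes, with median heights of 24 and 25 and maxima of 67 and 54. Their nearest protein-coding gene was a median of 687 kb away in the control list, with a minimum of 97.4 kb, and 608 kb away in the TGF-β1 list, with a minimum of 115.0 kb. At 47 desert sites both lists had a strong peak. A further 49 control members faced a lower TGF-β1 peak, with a median height of 14, and 15 TGF-β1 members a lower control peak, with a median of 16. The control and TGF-β1 lists each had 1 desert member without any partner. Lower peaks in deserts overlapped far less, in 17.02% and 13.09% of cases.

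The highest desert members stood between named genes, often on chromosome 3. The highest control one, chr3:110344851-110345620, had a control height of 67 and a TGF-β1 height of 49 and lies between DPPA4, a chromatin factor of pluripotent cells, and NECTIN3, which encodes a cell adhesion protein. Another, chr7:46785907-46787023, had 64 and 50 and lies between IGFBP3, encoding a binding protein of insulin-like growth factors, and TNS3, encoding a focal adhesion protein. A further pair lies between CBLB, a ubiquitin ligase gene, and CCDC54: chr3:106457273-106458385 had 54 and 28 and overlaps the long non-coding RNA gene LOC101929485, and chr3:106345371-106346785 had 53 and 39. The member chr3:162892740-162893310, between OTOL1 and SI, the sucrase-isomaltase gene, had a control height of 61 and a TGF-β1 height of 17. These peaks were all present in both lists.

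In the TGF-β1 list the highest desert member was chr17:71438542-71440072, with a height of 54 and a control height of 49. It lies 681 kb from SOX9, a transcription factor gene of cartilage, testis and kidney development, in the desert that separates SOX9 from KCNJ2, a potassium channel gene. This desert is known for distant SOX9 enhancers. Next came chr7:46784690-46786608 with 50 and then chr3:110344787-110345974 with 49, both already named in their control form. The member chr6:140061849-140063203, at a TGF-β1 height of 46 and a control height of 44, lies nearest to CITED2, a transcriptional co-regulator gene, at a distance of 687 kb, and overlaps the long non-coding RNA genes LINC02941 and LOC107986652. The exception was chr1:73910470-73911044, between NEGR1 and LRRIQ3, which had 41 in the TGF-β1 list and no control peak.

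Some deserts held several members. Between CBLB and CCDC54 a single bin held 8 control and 7 TGF-β1 members, and between DPPA4 and NECTIN3 a bin held 7 and 5. The bin between MYC, the proto-oncogene, and GSDMC held 8 and 4, and the bin between TLR4, an innate immune receptor gene, and BRINP1 held 5 and 4. Of the control members beside MYC, only that of 709 bp overlapped the long non-coding RNA gene PVT1. The rest overlapped another long non-coding RNA gene or none. PVT1 was also overlapped in the TGF-β1 list. Heights in these bins ranged from 20 to 67. The other desert bins held at most 4 members in either list.

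The longest members were also outside the centromeres. In the TGF-β1 list they were chr1:199122393-199125005 at 2613 bp, with a height of 22, which overlaps the long non-coding RNA gene LOC107985243, chr3:110418525-110420952 at 2428 bp, with a height of 36, and the chromosome 7 member between IGFBP3 and TNS3 at 1919 bp. In the control list they were chr3:95654585-95656749 at 2165 bp, with a height of 29, chr6:140061881-140063755 at 1875 bp, with 44, and chr3:110813623-110815438 at 1816 bp, with 23. The first of these control members overlaps the transcribed pseudogene MTHFD2P1 and lies 1.66 Mb outside the centromere span of chromosome 3. The other control member outside the 3 main places, chr2:89836483-89836820 with a height of 75, lies within IGK, the immunoglobulin kappa light chain locus, whose segments the table does not class as protein-coding, and had no TGF-β1 peak.

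No member overlapped a promoter of the RefSeq promoter table, but the rule leaves few promoters that a member could overlap. Of the promoters in that table, which run from 250 bases before to 50 after a gene's start, 0 of 356 control and 0 of 336 TGF-β1 members overlapped any, with exact upper limits of 1.03% and 1.09%. The table does not list the 45S genes, and their annotated starts did carry members: in the same window lay the control members chr21:8388584-8389053 (height 43, RNA45SN3) and chr21:8432992-8433610 (height 33, RNA45SN1) and the TGF-β1 member chr21:8205518-8205996 (height 42, RNA45SN2). Among strong peaks in bins with a coding gene, 24.2% and 21.9% overlapped a promoter of the table. The promoter of a long non-coding RNA gene was overlapped by 6.62% and 5.99%. These shares are not a like level for members, because promoters of coding genes are left out by the rule. Gene-free bins hold 654 promoters of long non-coding RNA genes, of which 89 overlapped a control peak of some height and 71 a TGF-β1 peak. Those bins hold 26696 control and 34820 TGF-β1 peaks in all. Peaks at such promoters were thus rare there at any height, and the absence of members from them is not a trait of the members. Desert members overlapped the body of a long non-coding RNA gene in 31 of 97 (32.0%, 22.9 to 42.2%) and 20 of 63 cases (31.7%, 20.6 to 44.7%). Lower peaks of the same bins did so in 27.1% and 27.4% of cases, within those intervals.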

How the data were processed

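FOXK1 and input libraries of HK-2 cells, 1 of each per condition, were sequenced, and a peak list per condition was deposited. The submitters' processing notes name the hg38 build, MACS2 (version 2.1.1.20160309) and bcl2fastq (version 2.17). The aligner, the treatment of reads with several matches, filters on reads, the threshold for peaks and the read numbers are not given in the sources used here. The lists were not pooled. The signal of each peak, as deposited by the authors without a header, is a whole number of at least 3 and was read as the pileup height. Neither height nor peak number is comparable between libraries of unknown depth.

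Counting and intervals used pandas 2.3.3, scipy 1.17.1 and numpy 2.4.6 under Python 3.11.15, and plots matplotlib 3.10.9. Starts were taken as 0-based, which the files do not state, so each could be 1 bp out. Genes were taken from RefSeq on GRCh38.p14, whose chromosome coordinates are those of hg38, with 19974 protein-coding genes in the table used. Centromere spans were entered by hand in whole megabases. Overlap needed 1 bp, shares have exact Clopper-Pearson 95% intervals, and positions on related arrays were matched within 50 bp. The counting and matching steps were tested on simulated data. The planned count of sequence motifs was not run, because no genome sequence was used here.

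Regions named are the 10 highest members of each list, the highest of each of the 5 fullest bins, the 5 highest without overlap, the 3 longest and the 5 highest over 5 Mb from a centromere, with non-coding genes that overlap them. A few others are given as examples of matched places or are outside the 3 main places. The members and lists were chosen with earlier results of these data known. Alternatives covered the height minimum, the bins, the overlap rule, the distance and leaving out bins or chromosomes.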

Additional observations from a re-analysis of the deposited data

Results flagged for a closer look

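Signal of the same strength appeared in sequence that no comparison above uses. On unplaced contigs, which are pieces of assembly without a position on a chromosome, the control list had 45 peaks of height 20 or more and the TGF-β1 list had 35. Both lists together held 821736 peaks with contigs and chromosome Y included. Of these, 381673 control and 439123 TGF-β1 peaks were on chromosomes 1 to 22 and X, where 1.99% and 1.32% reached that height. Peaks on contigs alone were not counted at all heights, so no share is given, and they were not analysed further.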

How the results depend on the processing

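Of 54 alternative values, 31 stayed within 1.5 times the reported value (counts) or within its 95% interval (shares and lengths) and 23 did not, and none could change a call because nothing was tested. The number of members was 678 and 657 (control and TGF-β1) with a minimum height of 15 and 158 and 138 with 30, and 189 in the control list when bins had to be free of any RefSeq gene (227 in the TGF-β1 list). Bins of 0.5 Mb gave 511 and 466 members. The share overlapping the other list was 27.5% and 29.2% when the partner had to be strong. It was 98.0% and 98.4% without the centromere and ribosomal DNA members, and 50.7% and 43.5% without chromosomes 1, 5 and 19, both settings chosen after seeing the data. At a minimum height of 30 the share near a centromere was 81.65% and 92.03%, and the median length of TGF-β1 members was 258 bp. The share of strong peaks in gene-free bins was 2.54% and 1.89% at height 15, 0.592% and 0.396% at height 30, 0.440% and 0.218% in deserts, and 1.19% in the control list without the fullest bin. Without chromosomes 1, 5, 19 and 21, also chosen after seeing the data, members made up 52.2% and 59.3% of strong peaks without overlap. No paired analysis was possible because each condition has 1 FOXK1 library and no result comes from a test. Depth, which is unknown, limits every comparison of heights or counts between the lists.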
